A study of Homo sapiens with 10 samples.

Results

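H4R3me2s, the symmetric dimethylation of arginine 3 on histone H4, was mapped by chromatin immunoprecipitation and sequencing in neuronally differentiated SH-SY5Y cells, and the regions described here are those where a peak over Input recurred in 2 or 3 of the 3 differentiated (BDNF) libraries. Peaks that overlapped by at least 1 bp were merged into regions. Of 17486 merged regions, 108 recurred. On chromosomes 1 to 22 and X, 92 of 17368 regions recurred (0.530%), each in exactly 2 libraries, and 0 had a peak in all 3. The other 16 lay on unplaced contigs, among 118 merged regions there (13.6%), and 1 of them had a peak in every library. The 92 regions on the chromosomes are the recurring regions of the text that follows.

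SH-SY5Y, derived from a human neuroblastoma, stops dividing and extends neurites when treated with retinoic acid and a neurotrophin. The whole series holds 10 libraries, of which 4 are used here. The 3 BDNF libraries (RA+BDNF in the labels, replicates 1 to 3) came from cells differentiated over 10 days. In the first 6 days the medium held 3% FCS and retinoic acid at 10 µM, and in the last 4 days it held no serum and BDNF at 50 ng/ml. These cells received no doxycycline, the agent that switches on a Tet-on transgene elsewhere in the study. The single Input, chromatin without antibody from untreated SH-SY5Y cells, served as control for all 3 libraries, and the labels do not say whether the Input cells or the BDNF cells carry the Tet-on construct. A peak thus compares differentiated ChIP with undifferentiated Input, and a fault in the Input is shared by all 3 peak lists. Growth medium for all cells held 10% FCS and zeocin at 300 µg/ml, and fixation was in 1% formaldehyde over 10 minutes. The labels do not say whether the replicates came from separate cultures, so their spread may be technical.

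Symmetric dimethylation of this arginine is written mainly by PRMT5, a type II arginine methyltransferase that works with a WD-repeat partner protein. The mark has been linked to gene silencing in several systems. Retinoic acid acts through nuclear receptors that change transcription directly, while BDNF signals through the receptor kinase TrkB to support neurite growth and survival.

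The sequence under part of the signal can be shown for promoters, taken here from RefSeq windows of GRCh38.p14 that run from 250 bases before to 50 after a transcript start. The windows matched 15812 of the 19974 coding genes, and none of the recurring regions overlapped 1 of the 34961 windows. Sequence is therefore given for peaks seen in 1 library, for the 4 coding genes whose upstream 250 bases held at least 50 bases of a peak, a choice made after their values were seen. Each line reads 5′ to 3′ along the gene's strand, ends at the base before the start, and has the bases under the peak in capitals.
SLCO1B3: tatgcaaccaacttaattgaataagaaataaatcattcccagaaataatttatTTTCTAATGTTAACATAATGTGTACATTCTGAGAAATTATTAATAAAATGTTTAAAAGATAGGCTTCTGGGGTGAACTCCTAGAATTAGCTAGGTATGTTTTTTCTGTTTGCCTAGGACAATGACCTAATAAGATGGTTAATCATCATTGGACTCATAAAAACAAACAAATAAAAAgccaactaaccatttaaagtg
PTPRE: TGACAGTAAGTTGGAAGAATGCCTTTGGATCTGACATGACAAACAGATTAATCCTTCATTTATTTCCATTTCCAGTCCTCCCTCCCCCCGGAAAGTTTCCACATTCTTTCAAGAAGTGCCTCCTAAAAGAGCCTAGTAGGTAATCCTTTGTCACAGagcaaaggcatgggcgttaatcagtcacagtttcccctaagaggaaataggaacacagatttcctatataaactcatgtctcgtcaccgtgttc
IPCEF1: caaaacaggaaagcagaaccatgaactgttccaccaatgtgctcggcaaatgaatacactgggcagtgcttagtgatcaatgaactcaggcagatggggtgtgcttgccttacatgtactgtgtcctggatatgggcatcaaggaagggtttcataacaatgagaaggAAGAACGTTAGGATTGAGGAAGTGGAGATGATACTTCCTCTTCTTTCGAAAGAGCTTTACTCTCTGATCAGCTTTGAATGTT
IL21: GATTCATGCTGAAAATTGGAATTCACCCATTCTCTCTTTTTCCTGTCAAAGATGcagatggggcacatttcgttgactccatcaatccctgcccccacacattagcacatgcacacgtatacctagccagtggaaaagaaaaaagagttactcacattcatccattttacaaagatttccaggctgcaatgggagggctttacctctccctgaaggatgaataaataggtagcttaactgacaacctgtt
SLCO1B3 encodes an organic anion transporter of the liver (chr12:20810455-20810704, plus strand). Its window had a GC content of 30.0% and 0 CG dinucleotides, and 176 of the bases shown lay under a peak of 7 fragments in replicate 1. PTPRE encodes a receptor-type tyrosine phosphatase (chr10:127987030-127987279, plus strand). Its window had 42.7% GC and 4 CG dinucleotides, with 156 bases under a peak of 5 fragments in replicate 2. IPCEF1 encodes a partner of the cytohesin exchange factors (chr6:154356804-154357053, minus strand). Its window had 44.3% GC and 3 CG dinucleotides, with 82 bases under a peak of 8 fragments in replicate 1. IL21 encodes a T cell cytokine (chr4:122621067-122621316, minus strand). Its window had 43.7% GC and 3 CG dinucleotides, with 54 bases under a peak of 7 fragments in replicate 3.

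These promoters were poor in GC, as were the others that a peak touched. Over 22 promoter windows under a peak the median GC content was 41.0% (range 30.0 to 51.0%), and 1 of 22 was above 50%. Over all windows the median was 58.7%, and 68.8% were above 50%. By library the medians were 41.0% over 9 windows in replicate 1, 40.0% over 8 in replicate 2 and 38.0% over 5 in replicate 3. The median number of CG dinucleotides (the letters CG, which read the same on both strands) was 2 under peaks and 14 over all windows. Of the 22 windows, 6 belonged to coding genes and 16 to long noncoding RNA genes. Over all 34961 windows, 22132 were of coding genes and 12829 of noncoding genes, so the 2 sets differ in make-up. For coding genes alone the median GC content was 43.2% over the 6 windows and 62.3% over all coding windows. Beside those shown above, the coding genes were RFX3, a transcription factor of ciliated cells, and PPEF2, a phosphatase of photoreceptors. Peaks overlapped a promoter window in 0.140 ± 0.0572% (SD, n = 3 libraries) of cases, while the windows cover 0.344% of the usable genome. The role of base composition in read recovery was not tested.

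Peaks were many and thin. Replicate 1 had 6171 peaks, replicate 2 had 4536 and replicate 3 had 6888, a mean of 5865 ± 1205 (SD, n = 3). They covered 1294, 825 and 1293 kb, which is 0.0479, 0.0306 and 0.0479% of the effective genome. The number of reads kept was similar, at 17583363, 17164402 and 18229482, beside 17074000 for the Input, so the library with the fewest peaks was also the one with the fewest reads. The deposited pileup heights, once the authors' scaling is undone, are whole numbers of fragments in 100% of peaks. The tolerance was 0.02 at low counts and grew in proportion to the count in higher peaks, so it says little about the highest pileups. The median peak held 7 fragments at its summit in each of the 3 libraries, and 93.9, 96.5 and 95.7% of peaks held 5 to 9. A count of 7 has an exact 95% Poisson interval of 2.81 to 14.4, which covers counting error only. The Input led to an expectation, averaged over the genome, of 1.11, 0.968 and 0.993 fragments. A peak had to pass the authors' p threshold of 0.01 over its background, so counts near this expectation could not be called.

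**Figure D1:**
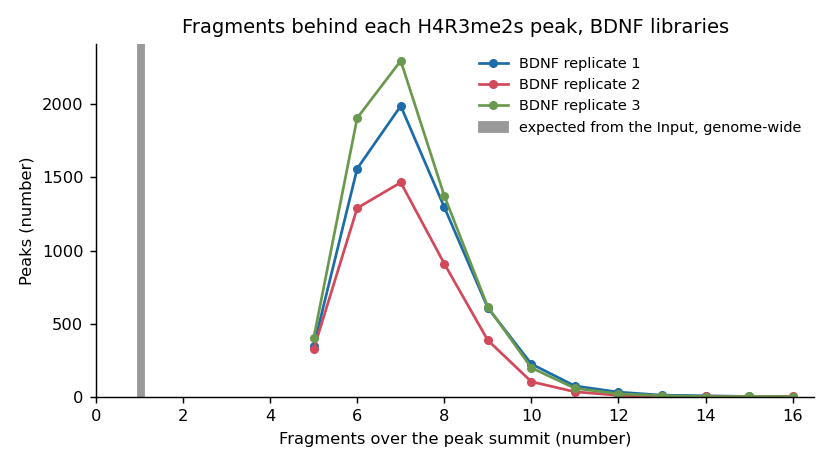
Number of peaks (vertical axis) by number of fragments over the summit (horizontal axis, up to 16) in each BDNF library, with a grey band for the genome-wide expectation from the Input. All 3 libraries have their highest point at 7 fragments and none has a peak below 5, while the band lies near 1 fragment. The authors' p threshold of 0.01 sets the lower limit of the counts, so a gap from the band was fixed by the calling.

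The median fold of treatment over local background, in the authors' values, was 3.49, 3.58 and 3.40 in replicates 1, 2 and 3, and the median −log10 p was 3.62 in each. Few peaks passed the authors' q of 0.05 or less, 32, 16 and 19 in the 3 libraries, or 0.381% of all peaks. A q of 1 was deposited for 91.0, 94.0 and 93.2% of peaks. The 67 peaks that passed fell in 63 regions, of which 4 passed in 2 libraries, all of them on unplaced contigs. On the chromosomes, 2 recurring regions had a peak that passed, and in each case the second library did not.

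Each pair of libraries shared a small part of its peaks. Replicates 1 and 2 shared 20 regions on the chromosomes, which is 0.328% of the peaks of replicate 1 and 0.444% of those of replicate 2. Replicates 1 and 3 shared 41 (0.672% and 0.599%), and replicates 2 and 3 shared 31 (0.688% and 0.453%). A library without a peak gives no value for that region, so its level there is unknown and may lie just under the authors' p threshold of 0.01. The number depended on the cutoff: 49 regions recurred among peaks with a −log10 p of 3 or more, and 4 among those at 5 or more. Merging peaks up to 500 bp apart gave 182 regions, 3 of them with all 3 libraries.

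The width of recurring regions and the distance between their summits are bounded by the rule, since peaks with median lengths of 181, 153 and 161 bp had to overlap. The median width was 275 bp (range 160 to 644), and the summits of the overlapping peaks were a median of 78 bp apart (range 0 to 354), with 54 of 92 pairs within 100 bp. The lower of the 2 −log10 p values had a median of 3.18 (range 2.08 to 5.95), and the median over regions found in 1 library was 3.62. Taken library by library, peaks in recurring regions had a median −log10 p of 3.8, 3.55 and 4.05, and peaks of 1 library 3.62, 3.62 and 3.62. The median fragments in recurring regions were 8, 7 and 7. Since a region could recur only by passing the threshold in a second library, these values are a description of the set.

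**Figure D2:**
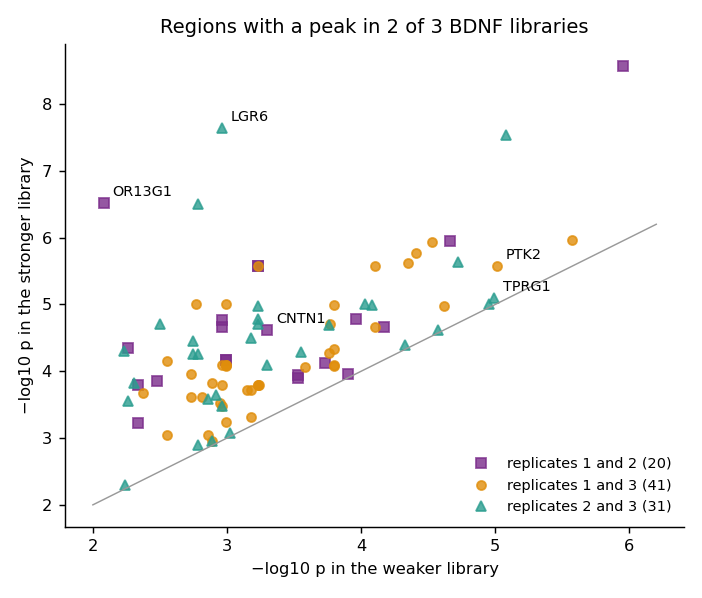
The 92 recurring regions, each by its −log10 p in the library where it was weaker (horizontal axis) and stronger (vertical axis), with a symbol for each pair of replicates and a line of equal values. Most points lie below 5 on the horizontal axis, and LGR6 and OR13G1 stand far above the line, with a strong peak in 1 library and a weak one in the other.

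The strongest recurring regions, ranked by the weaker of their 2 peaks, mostly held no gene. The first was chr21:8038023-8038230, with 12 fragments and a −log10 p of 8.57 in replicate 1 (q = 0.00589) and 9 fragments and 5.95 in replicate 2 (q = 0.575). Next came chr9:66357622-66357861, with 9 fragments in replicate 1 (5.57) and 9 in replicate 3 (5.97), and chr22:12191206-12191408, with 11 fragments in replicate 2 (5.08) and 14 in replicate 3 (7.53). These 3 regions contained no annotated gene, and the nearest coding gene was 208, 538 and 3337 kb away. Of the 12 strongest, 8 contained no gene, 3 lay inside the coding genes PTK2, TPRG1 and NPFFR2, and 1 lay in the noncoding RNA gene LOC105374524. The other regions without a gene were 2 on chromosome 1, at chr1:195217095-195217288 and chr1:190818633-190818850, and 1 each at chrX:8887630-8887814, chr11:79809636-79809929 and chr7:85606971-85607309. Their weaker peaks had −log10 p values from 4.41 to 4.95. Sequence without a gene held 45 of all 92 recurring regions (48.9%) and makes up 40.7% of the usable genome, so 8 of 12 is a small count beside these shares.

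The single region with a peak in all 3 libraries, on an unplaced contig, had −log10 p values of 13.4, 5.04 and 8.52. Its pileup reached 254 fragments. Peaks of recurring regions on contigs held a median of 13, 45 and 15 fragments over a median local background of 3.00, 17 and 4.62, while those on the chromosomes had local backgrounds of 1.14, 1.09 and 1.1. The part of this high Input level in the recurrence on contigs was not tested.

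A total of 34 of 19974 protein-coding genes (0.170%) had a recurring region inside them or within 2 kb, and each had 1. Among receptors, VIPR2, which binds vasoactive intestinal peptide and PACAP, had its region just upstream of the gene at chr7:159146051-159146359, 1.34 kb from its start, with 8 fragments in replicate 1 (−log10 p 4.66) and 8 in replicate 2 (2.96). NPFFR2, a receptor of neuropeptide FF, held chr4:72101894-72102168, with 8 fragments in replicate 1 (4.62) and 8 in replicate 3 (4.97), and their summits were 1 bp apart. LGR6, a receptor of R-spondins in Wnt signalling, held chr1:202257022-202257622, with 11 fragments in replicate 2 (7.64, q = 0.0339) and 8 in replicate 3 (2.96). OR13G1, an olfactory receptor, had chr1:247669300-247669508 beyond its far end, 10.3 kb from its start, with 11 fragments in replicate 1 (6.52) and 5 in replicate 2 (2.08). The peaks of NPFFR2 were of like strength, whereas those of LGR6 and OR13G1 were unequal. NPSR1, the neuropeptide S receptor, had 8 fragments in replicate 1 (4.35) and 9 in replicate 3 (5.62) at chr7:34788285-34788605, which also lies in its antisense gene NPSR1-AS1.

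Genes of adhesion, signalling and transcription were also among the 34. PTK2, the focal adhesion kinase, held chr8:140868125-140868453, with 9 fragments in replicate 1 (5.57) and 8 in replicate 3 (5.01). CNTN1, the axonal adhesion protein contactin 1, held chr12:40886133-40886323, with 8 fragments in replicate 1 (4.62) and 6 in replicate 2 (3.30). Replicate 3 had 3 peaks elsewhere in CNTN1 and none in that region. NRIP1, a corepressor of nuclear receptors that retinoic acid is known to induce, held chr21:15045682-15045965, with 6 fragments in replicate 2 (2.75) and 8 in replicate 3 (4.26). AHR, the aryl hydrocarbon receptor, held chr7:17301754-17302076, 3.26 kb from its start, with 9 fragments in replicate 2 (4.49) and 7 in replicate 3 (3.18). None of these 4 genes had a recurring region with a peak at a q of 0.05 or less.

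Enzyme and organelle genes had regions of 6 to 8 fragments per library. CYP2R1, the vitamin D 25-hydroxylase, shared chr11:14885777-14885973 with the overlapping gene PDE3B, and had 7 fragments in replicate 1 (2.34) and 6 in replicate 2 (3.23). C1GALT1C1L, a relative of a glycosylation chaperone gene that lies within PLEKHH2, held chr2:43675657-43675826, 0.688 kb from its start, with 7 fragments in replicate 2 (3.65) and 6 in replicate 3 (2.92). In such overlaps the region cannot be given to one gene. TOPBP1, a scaffold of the DNA damage checkpoint, had 6 fragments in replicate 1 (2.77) and 8 in replicate 3 (5.01). VCF1 had its region inside the gene, with 8 fragments in replicate 2 (5.01) and 7 in replicate 3 (4.03). It lay 1.76 kb from the nearest transcript start of VCF1 but more than 2 kb from either end of the gene. ERLIN1, of the endoplasmic reticulum membrane, had 6 fragments in replicate 1 (2.48) and 7 in replicate 2 (3.86), ASB5 had 7 in replicate 1 (3.8) and 7 in replicate 3 (4.10), and the collagen uptake receptor MRC2 had 6 in replicate 2 (3.23) and 8 in replicate 3 (4.70). The 34 genes had a median length of 134 kb, and all coding genes 24.2 kb.

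PRMT5, the writer of the mark, had 0 peaks within 2 kb in any library, and so did L1CAM, a neuronal adhesion gene. Both are short, at 8.85 and 24.7 kb. Of all coding genes 81.2% had no peak, and of those under 50 kb 6.58% had a peak in at least 1 library.

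Recurring regions were spread over gene-poor as well as genic sequence. By its midpoint, 45 of 92 regions (48.9%, exact 95% Clopper-Pearson interval 38.3 to 59.6%) contained no annotated gene, and 40.7% of the usable genome is of this kind. Coding genes with their 2 kb ends held 32 (34.8%, 25.1 to 45.4%), against 45.4% of the genome. Of these, 3 lay within 2 kb of a gene end (3.26%, 0.678 to 9.23%, against 4.75%) and 29 inside a gene (31.5%, 22.2 to 42.0%, against 40.7%). Another 11 lay in noncoding RNA genes alone (12%, 6.12 to 20.4%, against 12.5%) and 4 in pseudogenes alone (4.35%, 1.20 to 10.8%, against 1.31%). The genome share lies inside the interval in each of these classes except the inclusive one of coding genes with their ends, where it equals the upper bound to 3 digits. The gene-end share was 0% with replicate 2 left out and 10.0% with replicate 3 left out. Exons and introns were not told apart.

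All peaks gave closer estimates, because the libraries resembled each other in this respect. Gene ends held 2.82, 2.82 and 2.42% of peaks (2.69 ± 0.228%, SD, n = 3), below the genome share of 4.75% in every library. Gene interiors held 37.9 ± 1.92% against 40.7%, and sequence without a gene 44.8 ± 1.76% against 40.7%. Within 1 kb of the start of a coding gene lay 0.433, 0.515 and 0.321% of peaks, while 1.32% of the genome is that close. Within 5 kb the share was 3.42 ± 0.117% against 5.98%, and within 100 kb 43.2 ± 0.363% against 52.3%. Of the 88 recurring regions outside chromosome 8, for which no starts were used, 1 was within 1 kb, 4 were within 5 kb, and the median distance was 160 kb. Starts were at hand for 15812 of the 19974 coding genes, so these distances can be too long. The genome shares near starts rest on the same starts.

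**Figure D3:**
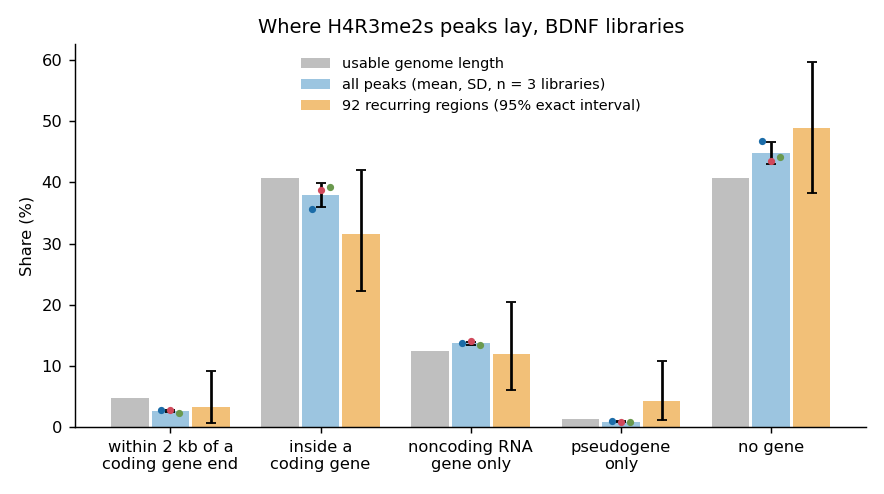
Share of the usable genome (grey), of all peaks (blue, mean and SD of 3 libraries, dots for replicates 1 to 3 in blue, red and green) and of the 92 recurring regions (orange, exact 95% interval) in 5 location classes. Peaks lie below the genome share at gene ends (2.69 against 4.75%) and above it outside genes (44.8 against 40.7%), and the intervals of the recurring regions are wide.

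Peaks were unevenly spread over the chromosomes, in much the same way in each library. Over the usable genome there were 2.10, 1.55 and 2.36 peaks per Mb (2.01 ± 0.413, SD, n = 3). By the mean, chromosome 7 had the most, at 2.81, 2.97 and 3.85 per Mb, and chromosome 19 the fewest, at 0.632, 0.632 and 0.807. In replicate 1 chromosome X was higher than chromosome 7, at 2.98, and in replicate 2 chromosome 22 was lower than chromosome 19, at 0.550. Chromosomes 22 (0.875 ± 0.313) and 16 (1.20 ± 0.451) came next from the bottom, and chromosomes 4 (2.46 ± 0.803), X (2.36 ± 0.594) and 1 (2.22 ± 0.460) followed from the top, with ranges that overlap. Across the 23 chromosomes Pearson's r of peaks per Mb was 0.832 between replicates 1 and 2, 0.832 between 1 and 3 and 0.922 between 2 and 3, a description of lists that share the Input. Peaks per Mb went down with coding genes per Mb (r = −0.642, Spearman's rho −0.653, 23 chromosomes), and gene density goes with base composition along human chromosomes.

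Recurring regions were most numerous on chromosomes 1 (15), 7 (12), 4 (7) and 21 (6), and chromosomes 16 and 19 had 0. Per 10 Mb, chromosome 21 had 1.43, chromosome 22 had 1.00, chromosome 7 had 0.764, chromosome 1 had 0.655 and chromosome 17 had 0.617, beside 0.317 over the genome. The lead of chromosome 21 rests on few regions and did not hold in every pair: it had 0.714 per 10 Mb without replicate 1, 0.238 without replicate 2, and 0.476 without replicate 3. Only 3 windows of 10 Mb held 3 or more recurring regions, and these were the first window of chromosome 21, the second of chromosome 22 and the one from 140 Mb on chromosome 1. The window on chromosome 22 held all 4 of its regions, from position 10732487 to 15665827, with local backgrounds from 1.00 to 4.00 fragments. On chromosome 21 the first window held 3 of its 6, from 8038023 to 9792269. The values per 10 Mb thus do not describe these chromosomes along their whole length.

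Within chromosomes 1, 2 and 17 the arms differed. The arms were told apart at the longest stretch without a gene. The long arm of chromosome 1 had 2.73, 2.61 and 3.52 peaks per Mb, and the short arm 1.49, 1.20 and 2.08. All 15 recurring regions of chromosome 1 lay on the long arm. On chromosome 17 the long arm had 1.90, 1.60 and 2.41 peaks per Mb with 5 recurring regions, and the short arm 1.22, 0.696 and 0.957 with 0. On chromosome 2 the short arm had 2.13, 2.00 and 2.87 with 4 regions, and the long arm 2.19, 1.34 and 2.44 with 1. For chromosomes 1 and 17 the long arm was higher in each of the 3 libraries, and for chromosome 2 the short arm was higher in replicates 2 and 3.

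Chromosome 7, 1q, 2p and 17q together make up 14.3% of the usable length. They held 36 of the 92 recurring regions (39.1%), or 0.870 per 10 Mb against 0.225 in the rest. Of the 36, 15 lay on 1q, 12 on chromosome 7, 5 on 17q and 4 on 2p. The share of peaks in these 4 places together was 17, 22.7 and 20.2%, or 2.51, 2.47 and 3.35 per Mb against 2.04, 1.40 and 2.2 in the rest. They were not alike: 17q, at 1.90, 1.60 and 2.41 per Mb, was below the rest in replicate 1. Its values were close to the 2.10, 1.55 and 2.36 over the usable genome, while chromosome 7 and 1q had the highest. SH-SY5Y is known to carry extra copies of chromosome 7 and of parts of 1q, 2p and 17q. The Input level moved with the same places: the median local background at peaks was 1.58, 1.27 and 1.41 fragments on chromosome 7 and the same on 1q, 1.39, 1.22 and 1.19 on 2p, and 1.25, 1.21 and 1.24 on 17q. On 1p it was 1.11, 1.05 and 1.06, on 2q 1.11, 1.01 and 1.04, and on 17p 1.11, 1.01 and 1.00. Peaks at the genome-wide floor of the background made up 10.9, 2.79 and 3.14% on chromosome 7 and 47.3, 20.1 and 35.9% over all chromosomes. Copy number was not measured here, and its part in the peak and region counts was not tested.

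**Figure D4:**
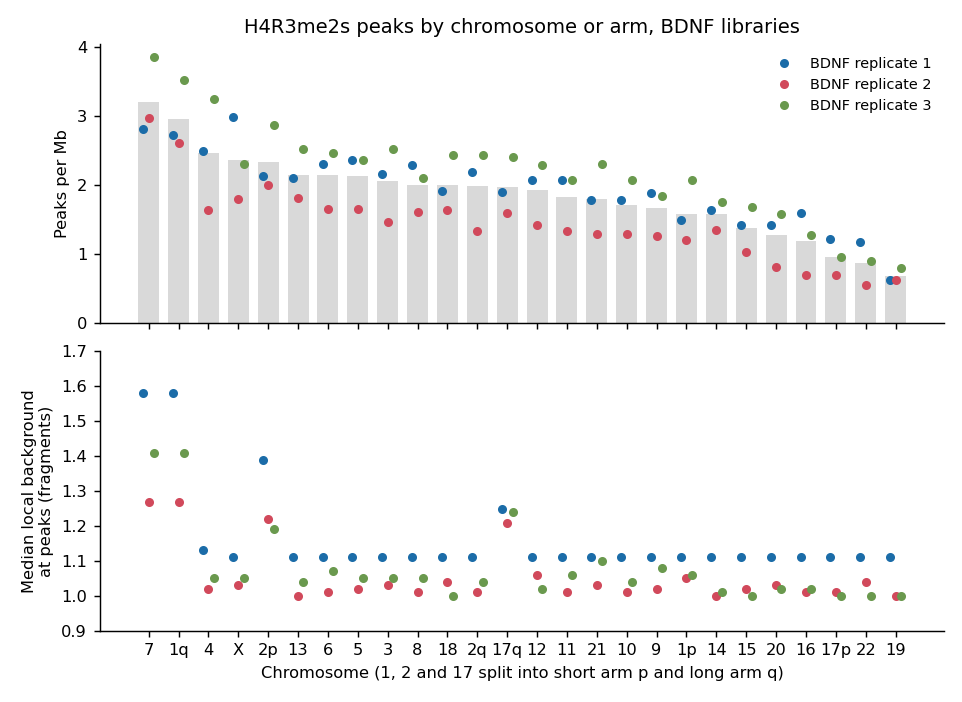
Peaks per Mb (upper panel, bars for the mean of 3 libraries) and median local background from the Input at those peaks in fragments (lower panel, axis from 0.9), with points for each BDNF library, by chromosome or arm in order of the mean. Chromosome 7 and 1q lead both panels, and 2p and 17q are the others whose background stands above the rest.

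Genes with a peak in every library, at any place in the gene, were long genes. A peak in at least 1 library was found in or within 2 kb of 3763 coding genes (18.8%), and 316 (1.58%) had one in all 3 libraries. The median length was 17.7 kb for genes without a peak, 83.0 kb with a peak in 1 library, 198 kb in 2 and 503 kb in 3. Of 13716 genes under 50 kb, 0.0219% had a peak in every library, of 245 genes from 500 to 1000 kb 43.7%, and of 69 genes of 1000 kb or more 75.4%. Peaks per Mb also went up with length, from 1.18 ± 0.198 in genes under 50 kb to 1.97 ± 0.474 from 200 to 500 kb and 2.47 ± 0.393 (SD, n = 3) in the longest class. A recurring region was found in 0.0510% of genes under 50 kb, in 1.11% from 200 to 500 kb, in 0.816% from 500 to 1000 kb (2 of 245 genes) and in 1.45% of longer ones (1 of 69).

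CNTNAP2, a contactin-associated adhesion protein and 1 of the longest human genes at 2304 kb, had the most peaks, with 12, 7 and 10 in the 3 libraries. CSMD1, a large complement-control membrane protein, had 9, 9 and 6, PCDH15, a cadherin of hair cells, 4, 9 and 10, CNTN5, a contactin, 3, 7 and 12, and PTPRD, a synaptic receptor phosphatase, 6, 8 and 8. These 5 genes were chosen after their counts were seen. None had a recurring region: the libraries had peaks in the same genes at different positions. This was the usual case, since 0.530% of merged regions on the chromosomes recurred and 1 of all 69 genes of 1000 kb or more had a recurring region.

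Gene lists showed few recurring regions. Of 530 genes in 22 lists on neurons, differentiation, chromatin and the cell cycle, 2 had one (0.377%, beside 0.170% of all coding genes), CNTN1 of the neuronal adhesion list and NRIP1 of the retinoic acid response list. Of 392 olfactory receptors 1 did, OR13G1. In neuronal adhesion genes, which include neurexins and contactins, 13 of 34 had a peak in all 3 libraries (38.2%, beside 1.58% of all coding genes), and the median length of the list was 385 kb. Examples are NRXN3 with 2, 2 and 2 peaks, NLGN1 with 2, 3 and 3 and OPCML with 2, 2 and 5. Glutamate receptor genes had 6 of 25 (24.0%, median length 324 kb, GRIN2B with 3, 3 and 3 peaks). Axon guidance genes had 7 of 32 (21.9%, 319 kb, DCC with 6, 2 and 2), and presynaptic release genes 5 of 28 (17.9%, 153 kb, RIMS2 with 2, 2 and 2). In the list of large and fragile-site genes, 22 of 29 had one (75.9%), with a median length of 1380 kb. Among all coding genes the share was 0.905% from 50 to 200 kb and 10.2% from 200 to 500 kb. It was 43.7% from 500 to 1000 kb and 75.4% in longer genes. The lists were not matched for length.

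Peaks per Mb of gene differed between lists. All coding genes had 1.75, 1.42 and 2.14 peaks per Mb (1.77 ± 0.359, SD, n = 3). Those from 200 to 500 kb had 1.89, 1.54 and 2.48. Those of 1000 kb or more had 2.52, 2.05 and 2.83, beside 2.52, 2.19 and 2.83 in the large fragile-site list (median length 1380 kb). Neuronal adhesion genes had 2.03, 2.45 and 3.28 (2.59 ± 0.636), glutamate receptor genes 2.50, 2.61 and 2.71 (2.61 ± 0.104), cadherins 2.66 ± 0.518, presynaptic release genes 2.58 ± 1.07 and large fragile-site genes 2.51 ± 0.318. For these 5 lists each library was above its own value over all coding genes. The same held for olfactory receptors (3.92, 2.40 and 2.18) and for ion channel genes (2.41, 1.51 and 2.34). It also held for neurodevelopmental regulators (2.23, 1.67 and 2.64) and for protein kinase C and cAMP genes (2.03, 1.57 and 2.49). Other neuronal lists did not all do so: axon guidance genes had 2.31, 1.27 and 2.98, postsynaptic genes 2.81, 1.36 and 1.55 (median length 551 kb), and axon cytoskeleton genes 1.44, 0.720 and 1.62, the last below the value over all coding genes in each library. Lists of shorter genes lay on both sides of that value. The retinoic acid response list had 1.28, 0.957 and 0.957 (median length 41.1 kb), the BDNF and neurotrophin response list 1.47, 0.589 and 0.589 (19.7 kb), the subunits of the BAF chromatin remodeller 1.15 ± 0.666, and the cell cycle list 0.617 ± 0.535. Olfactory receptors had 2.83 ± 0.949 (2.94 kb), GABA receptor genes 2.8 ± 1.40 (88.2 kb), arginine methyltransferase genes and partners 2.53 ± 1.26 (28.2 kb) and mesenchymal markers 2.14 ± 1.54 (75.3 kb). A peak in at least 1 library was found in 18.8% of all coding genes and in 6.58% of those under 50 kb, and the counts of short families are read against these shares. Of the 39 HOX genes (median 3.79 kb) 0 had a peak, of 79 histone genes (0.497 kb) 1 and of 81 ribosomal protein genes (5.06 kb) 2. Arginine methyltransferase genes and partners had a peak in 6 of 15, each in 1 library alone, which was so for 13% of all coding genes. Markers of the noradrenergic neuroblastoma state had a peak in 3 of 24 (median 13.8 kb), those of the mesenchymal state in 10 of 22 (75.3 kb), and those of other cell types in 5 of 24 (15.7 kb), with 0 in all 3 libraries in each list. The lists differ in length, and their counts were not compared. Peak lists hold no expression, so the label of the cells was not checked against their markers.

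**Figure D5:**
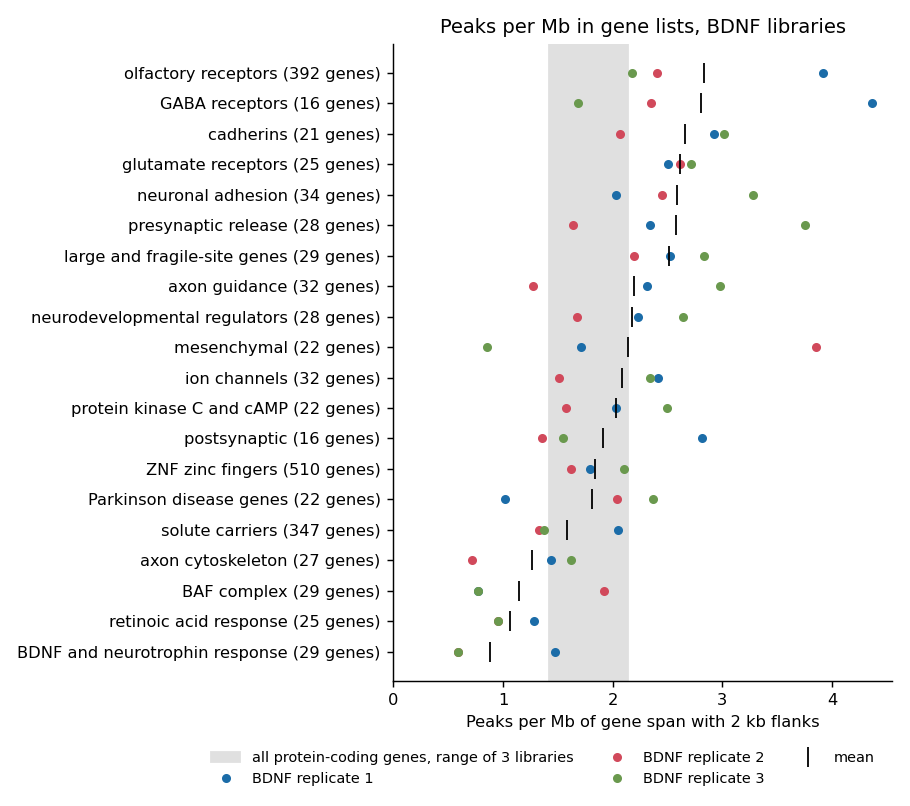
Peaks per Mb of gene span with 2 kb flanks in each BDNF library (points) and their mean (bar) for gene lists that span at least 2 Mb, beside the range over all protein-coding genes (grey). The clustered protocadherins, whose gene spans overlap, are left out. Adhesion, receptor and fragile-site lists lie to the right of the grey band or across its edge, and the BDNF and retinoic acid response lists lie mostly to its left.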

How the data were processed

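Each of the 3 BDNF libraries was called against the same Input. The submitters' processing notes name Trimmomatic 0.32, cutadapt 1.1, Bowtie (version not stated), MACS2 2.2.7.1 and GRCh38. Per the file headers, MACS2 used a p threshold of 0.01, scaled the larger dataset down, kept 1 read at a position, took an effective genome of 2.7e+09 bp and measured local background over 1000 and 10000 bp. The deposited columns give, as MACS2 wrote them, peak length, pileup at the summit (a signal in scaled fragments), fold enrichment over local background (a ratio), and p-value and q-value as −log10. The headers say that q would not be calculated, but the deposited q column holds values, used as given. Other peak lists of the series were not used here.

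Fragments were pileup divided by the scale, and local background was (pileup + 1)/fold − 1, from which −log10 p was recomputed within 0.01 of the deposited value in 100% of peaks. The merging was tested on simulated data. Genes were RefSeq spans (GRCh38.p14, 19974 coding). Usable length was 2902 bins of 1 Mb with a gene or peak, and contigs were left out of location, chromosome and gene counts. Intervals of shares are exact 95% Clopper-Pearson and treat regions as independent. No test was run: 3 libraries of 1 group allow no exact two-sided sign-flip p below 0.25, and recurrence chose the regions. Alternatives were stricter p, other overlaps and flanks, equal peak numbers, no extreme pileups, contigs included, and each replicate left out. Python 3.11.15, pandas 2.3.3 and scipy 1.17.1 were used.

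The members and gene lists were chosen with earlier results of these data known. By rule, the text names the region in 3 libraries, the 12 strongest others, genes with a region within 2 kb of an end or start, the 10 genes with most regions per kb, list members with a region, and PRMT5 and L1CAM. A few genes this rule would name are not reported here. LGR6, NPSR1, PDE3B, PLEKHH2, the promoters, the groups of arms, and genes named for peak counts or single peaks were chosen after their values were seen.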

Additional observations from a re-analysis of the deposited data

How the results depend on the processing

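No paired analysis was possible because 1 group was described and no groups were compared. The number of recurring regions was 92 with all choices as described, 49 at a −log10 p of 3 or more, 4 at 5 or more, 182 with peaks merged within 500 bp, 60 with 4505 peaks per library, and 20 to 41 with 1 replicate left out, which leaves 1 pair. Requiring overlap by at least 50% of the shorter peak gave 63, and leaving out extreme pileups gave 87. Regions in all 3 libraries numbered 0, but 3 within 500 bp and 1 with contigs included. Coding genes with a recurring region numbered 34, and 16, 1, 21, 72 and 20 at a −log10 p of 3, of 5, with overlap of the shorter peak, within 500 bp and with equal peak numbers, and 10 to 13 with 1 replicate left out. The gene-end share of 3.26% was 0% at a −log10 p of 3 and of 5, and 0 to 10.0% with 1 replicate left out. The coding gene share of 34.8% was 25% at a −log10 p of 5, where 4 regions remained, and 26.8 to 45.0% with 1 replicate left out. The chromosome 21 value of 1.43 regions per 10 Mb was 0.238 at a −log10 p of 5 and 0.714 with overlap of the shorter peak, when chromosome 22 led, 1.67 within 500 bp, when chromosome 7 led, and 0.238 to 0.714 with 1 replicate left out, chromosome 22 leading without replicate 2. Fewer peaks or pairs enter each stricter count, and other causes were not tested. Depth limits each value: a peak rests on a median of 7 fragments.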

Other observations

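On the chromosomes 17276 of 17368 merged regions had a peak in 1 library alone, and 0.530% recurred. The strongest peaks there were also seen in 1 library, with 1 exception, chr21:8038023-8038230, among the 12 with the largest −log10 p. The largest, 9.84 (q = 0.000488), belonged to a peak of 13 fragments in replicate 2 inside FBN2, which encodes a microfibril protein (chr5:128450305-128450457), where the local background was 1.07. WDR3, a factor of ribosome assembly, had a peak of 12 fragments in replicate 3 (chr1:117937376-117937611, q = 0.00665). PDE6G, a phosphodiesterase subunit of rod photoreceptors, had a peak of 12 fragments at its gene end in replicate 1 (chr17:81662091-81662320, q = 0.00589).

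Hairpins of 2 microRNAs lay under a peak, each in replicate 1 alone. MIR500A was under a peak of 7 fragments (−log10 p 3.8) and MIR8078 under a peak of 12 fragments (−log10 p 2.26).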
